A study of Rattus norvegicus with 13 samples.

Results

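The 9 genes described here code for the nucleosome remodelling and deacetylase (NuRD) complex: Rbbp4 and Rbbp7, Hdac1 and Hdac2, Mta1 and Mta2, Chd4, Mbd2 and Mbd3. They were taken by their names on the array, with every probe kept, which gave 13 probes of 9 genes among 45598 probes of 36174 gene names. The set was chosen by the KI-treated minus control differences of the Rbbp4 probes, which had already been seen to disagree in direction, so the values of Rbbp4 are given as a description without a test. A probe entered the comparison if 6 or more of the 13 arrays showed it well above background, which 12 probes of 8 genes did and the probe of Hdac2 did not.

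RNA from whole thyroids of male Wistar rats was measured on one-colour Agilent microarrays, 1 array per animal. The 6 animals of the KI-treated group were progeny of dams that had received potassium iodide (KI) by gavage at 1 mg/kg/day for 8 days from gestational day 9, and the 7 animals of the control group were progeny of dams given 0.9% saline by the same route. The thyroids were collected 30 days after weaning, at 51 postnatal days. The study describes the KI-treated progeny as exposed to KI in utero, and it reports dosing of the dams only. The litters are not given in the sources used here, so littermates could not be separated and p-values measure the spread between these animals.

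NuRD joins an ATP-driven motor that moves nucleosomes with enzymes that take acetyl groups off histones, and it is mostly known for holding genes at a low or silent level. The MTA proteins are the scaffold that binds the deacetylases, RBBP4 and RBBP7 hold the histone tails, CHD4 is the remodelling motor, and MBD2 or MBD3 links the complex to DNA, MBD2 through methylated CpG sites. RBBP4, RBBP7, HDAC1 and HDAC2 are not particular to NuRD, since they also sit in the SIN3 complex, in Polycomb repressive complex 2 (PRC2, RBBP4 and RBBP7 only) and in other chromatin complexes.

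The 4 probes of Rbbp4 are shown because the array files place them close together and yet they did not give one answer. All were designed on the same RefSeq transcript, on the minus strand of chromosome 5 in build rn4 as given by the array files. A_44_P1159583 (chr5:148472993-148473052) ended on a TAG stop codon with no other stop in that reading frame, and is called the coding-end probe. A_44_P1102788 (chr5:148472947-148473006) shared 14 bases with it, in capitals in both sequences, ran across the stop codon and is called the stop-codon probe. A_44_P943514 (chr5:148472584-148472643) started 409 bases downstream of the coding-end probe and is called the downstream probe. A_44_P1090425 is called the short-interval probe, because the files place it on only 26 bases (chr5:148472354-148472379) although it has 60, so its position in the transcript is not settled here. Its capitals mark 18 bases that it shared with a probe for a locus described as RBBP7-like. Of the stop-codon and downstream probes the first 30 bases are given.
Coding-end probe: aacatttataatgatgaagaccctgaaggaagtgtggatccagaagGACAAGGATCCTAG
Stop-codon probe, first 30 bases: GACAAGGATCCTAGatatgtctgcacgtgt
Downstream probe, first 30 bases: tacgtttttacctggcagttgtaccactgg
Short-interval probe: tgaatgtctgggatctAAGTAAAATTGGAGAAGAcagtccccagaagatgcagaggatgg

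Values are on a log2 scale, with the array's own 75th percentile set to 0. Each probe binds with its own strength, so a brighter or dimmer signal was not read as more or less RNA from one probe to another. Over all 25717 tested probes, 0 differed between the groups at an adjusted p under 0.05 (limma, Benjamini-Hochberg, 0% called), 3271 (12.7%) had an unadjusted p under 0.05, with a positive fold change (KI-treated minus control) for 1469 (5.71%) and a negative one for 1802 (7.01%), and the median log2 fold change was -0.08. The labelled tissue was borne out by its markers, with 9 of 10 follicular cell markers tested (Slc26a4 was not) and thyroglobulin (Tg) at 10.02 in the KI-treated and 10.28 in the control group. Markers of the neighbouring parathyroid (3 of 3 tested) and of C cells (5 of 5 tested) were present as well. In whole tissue, fewer cells of a type and less RNA per cell cannot be told apart.

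A pair of control arrays, those of controls 4 and 6, stood apart and bear on most results. They had the lowest 75th percentiles of log2 signal, 8.18 and 7.92 against 8.48 to 9.10 on the other 11 arrays. The same arrays had the lowest values of an index of signal along the transcript, which is the median over 2144 pairs of probes on the same transcript of the upstream minus the downstream probe: -2.03 and -1.87, against -1.72 in control 7 and -1.59 to -1.49 in the other 10 animals. Their follicular cell marker sum was the highest as well, 10.9 in each against 10.2 to 10.6 elsewhere. So were their sums of parathyroid markers (9.20 and 9.38, against at most 8.84) and blood markers (8.56 and 8.91, against at most 8.28). Their C cell sum was the lowest (6.79 and 7.15, against at least 7.38), and on the remaining lists they were neither both highest nor both lowest. Differences of the members are therefore given with and without controls 4 and 6, a choice made after seeing the data.

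Rbbp4, the histone-binding subunit, had a higher mean in the KI-treated group on 3 of its probes and not on the downstream probe. On the coding-end probe the KI-treated group ranged from 0.84 to 1.57 (median 1.22) and the control group from -0.35 to 1.45 (median 0.27). All 6 KI-treated animals were above the control median, but only 1 was above every control, because control 2 at 1.45 lay within the KI-treated range. The mean difference was 0.95 (SE 0.26, n = 6 and 7), or 1.93-fold.

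The stop-codon probe gave nearly the same order of animals. The KI-treated group lay between 0.76 and 1.90 (median 1.50) and the control group between -0.32 and 1.78 (median 0.54), where control 2 was again the highest control. The difference was 0.89 (SE 0.30), or 1.85-fold.

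On the short-interval probe the KI-treated group ranged from -1.15 to -0.59 (median -0.70) and the control group from -2.86 to -0.63 (median -1.97). Control 2, at -0.63, was the single control inside the KI-treated range, and controls 4 and 6 were the lowest of all at -2.82 and -2.86. The difference was 1.17 (SE 0.30), or 2.25-fold.

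The downstream probe, which had the brightest signal, gave another order of the animals. The KI-treated group lay between 4.26 and 4.53 (median 4.41) and the control group between 4.10 and 5.18 (median 4.46). The highest of all 13 animals were controls 4 and 6, at 5.18 and 5.01, while the other controls lay between 4.10 and 4.597. The difference was -0.12 (SE 0.18), and it was positive under 3 of 28 settings, which include leaving out arrays.

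**Figure D1:**
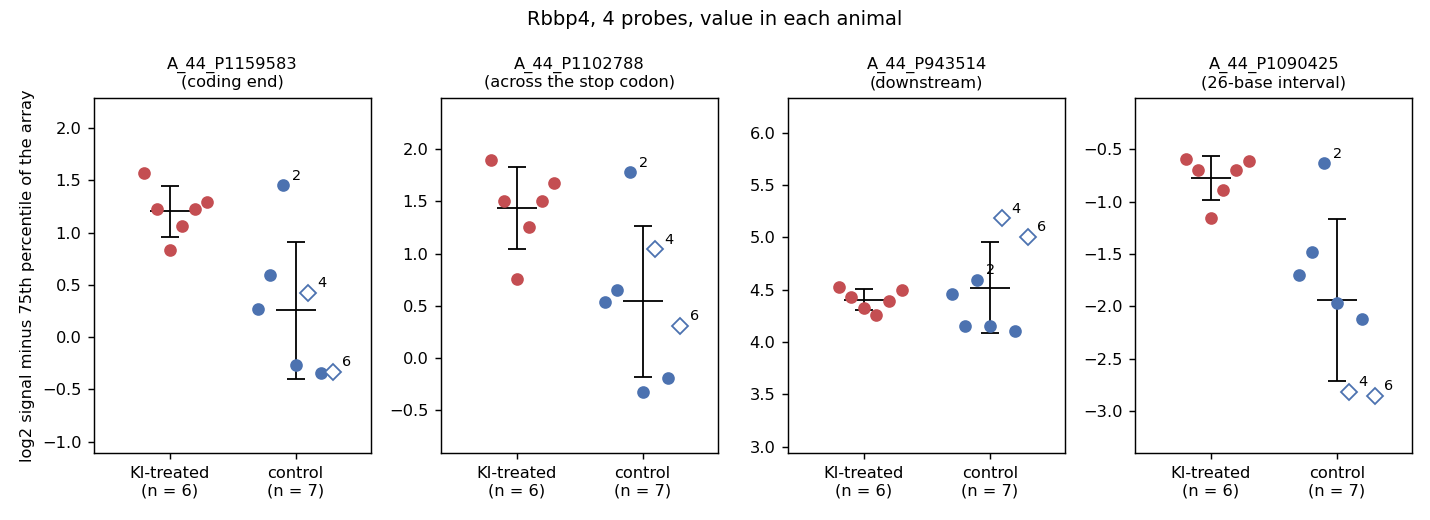
Value of the 4 Rbbp4 probes in each animal (y axis, log2 signal minus the 75th percentile of the array, the same span in each panel), with KI-treated animals in red, controls in blue, controls 4 and 6 as open diamonds, and the group mean with SD in black. Control 2 lies within the KI-treated range in each panel but the downstream one, where controls 4 and 6 lie above every other animal, at 5.18 and 5.01.

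Leaving out controls 4 and 6 brought the downstream probe nearer to the other 3. Without them the differences were 0.86 (SE 0.28) on the coding-end probe, 0.94 (SE 0.34) on the stop-codon probe, 0.81 (SE 0.23) on the short-interval probe and 0.11 (SE 0.11) on the downstream probe (n = 6 and 5). Each of the 4 values was then positive, but that of the downstream probe remained the smallest.

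The agreement of the probes within animals showed the same pattern. After the group means were subtracted, the coding-end and stop-codon probes had a Pearson r of 0.93 across the 13 arrays, while the short-interval probe had an r of 0.75 with the coding-end, 0.52 with the stop-codon and -0.44 with the downstream probe. Over the 11 arrays without controls 4 and 6, r was 0.98 between the coding-end and stop-codon probes, 0.98 and 0.97 between these and the short-interval probe, and 0.78 to 0.82 between the downstream probe and the other 3. The downstream probe followed the others with a smaller amplitude: across these 11 animals its values spanned 0.49, whereas the coding-end probe spanned 1.92, the short-interval probe 1.53 and the stop-codon probe 2.22 log2 units. These correlations are a description over arrays that share a slide and a scaling, without a p.

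**Figure D2:**
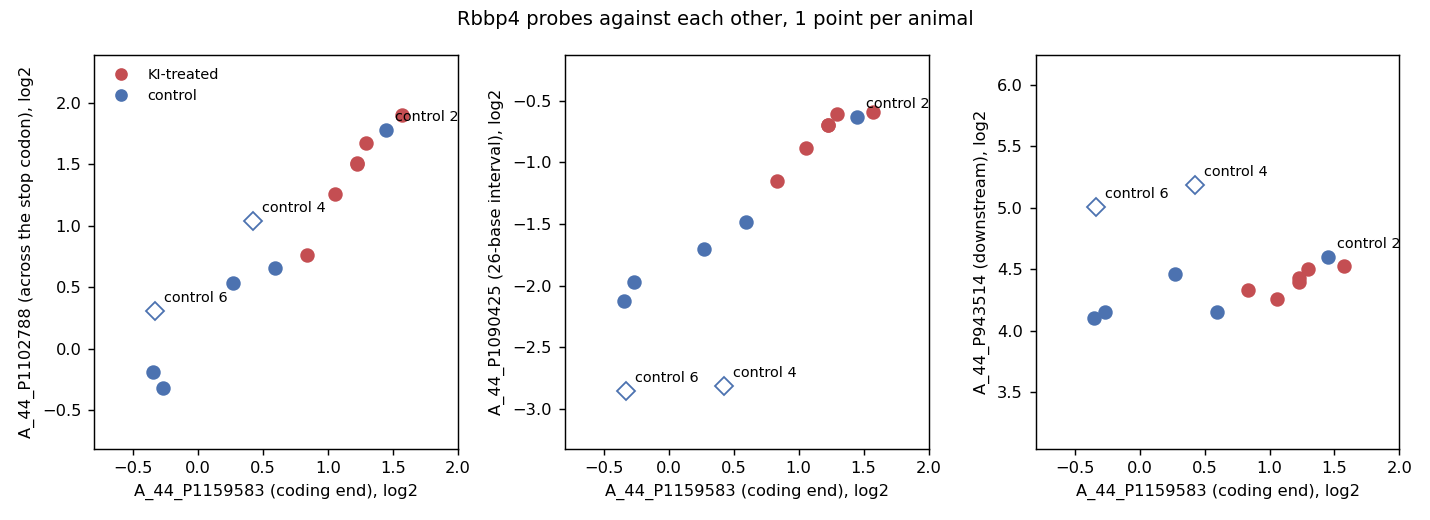
Each Rbbp4 probe (y axis, log2) against the coding-end probe (x axis, log2), 1 point per animal, KI-treated in red and control in blue, with controls 4 and 6 as open diamonds. The 11 other animals follow a single line in the left and middle panels (r of 0.98 and 0.98 after subtracting group means). Controls 4 and 6 lie above it on the stop-codon probe, at 1.04 and 0.31. They leave the other animals downwards on the short-interval probe and upwards on the downstream probe.

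The difference on the 3 probes was not the same on every slide. Slide 3 held KI-treated animals 1 and 6 and control 2, and there the KI-treated minus control difference was -0.02 on the coding-end, 0.01 on the stop-codon and 0.03 on the short-interval probe. On the other 4 slides that held both groups it was 0.63 to 1.37, 0.45 to 1.51 and 0.78 to 2.12, respectively. Slides 1, 2 and 4 held 1 animal of each group, and slide 5 held 1 KI-treated animal and 2 controls. The only control was control 4 on slide 1, which gave the 2.12 of the short-interval probe. On slide 2 it was control 6, and that slide gave the 0.45 of the stop-codon probe. Slide and single animal were not separated in these differences. With slide as a block the differences over all arrays were 0.78 (SE 0.20), 0.67 (SE 0.20) and 1.09 (SE 0.26), and that of the downstream probe was -0.20 (SE 0.16).

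Much of the overlap between the groups came from control 2, the highest control on the coding-end, short-interval and stop-codon probes. Since it was picked for that, the groups had to lie further apart without it, and the values are a description. Without it, all 6 KI-treated animals lay above all 6 remaining controls on the coding-end and short-interval probes. On the stop-codon probe 5 of 6 did, and the differences were 1.15, 1.39 and 1.09. The share of all tested probes that separate when their highest control is left out was not computed. The downstream probe stayed at -0.10. Whether the slide, the animal or its litter sets the value of control 2 was not tested.

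Disagreement of this size between probes of one gene was uncommon on the array. The largest minus the smallest log2 fold change was 1.28 for Rbbp4 over all arrays. It lay between the short-interval and the downstream probe, on which controls 4 and 6 were the lowest and the highest animals. Without these controls the Rbbp4 fold changes ran from 0.11 to 0.94, and the spread of other genes was not computed. Among 3969 genes with at least 2 tested probes the median of this spread over all arrays was 0.24. Counting Rbbp4 itself, 18 genes (0.454%) reached its value, of which 3 were among the 175 genes with at least 4 probes. Since Rbbp4 was chosen for this disagreement, its rank is a description.

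The 3 probes of other genes that most resembled each Rbbp4 probe, by Pearson r over the 13 arrays after subtracting group means, had no gene in common between the 4 probes. For the coding-end probe they were Tmem167a (r 0.91), Tiparp (0.90) and Clcn4 (0.89), and for the stop-codon probe Dhx15 (0.89), Trnt1 (0.88) and RGD1308430 (0.87). The short-interval probe was followed by Mto1 (0.96), Nmt1 (0.95) and Fmo5 (0.94), and the downstream probe by Syne4, Arl5b and Bub3 (0.97 each). Without controls 4 and 6 the r of all 12 lay between 0.87 and 0.93. These probes were picked for the highest r among all tested probes of other genes. High values therefore follow in part from the choice, and they are a description without a p.

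Of the remaining 8 genes, 7 were tested, and none of their differences passed the test. Of their 8 tested probes, 0 passed an adjusted p under 0.05 against 0% of all tested probes, and 0 had an unadjusted p under 0.05 against 12.7% of all. Their median log2 fold change was -0.13 beside -0.08 over all tested probes, with 2 positive and 6 negative values. No probe of any of the 9 genes had groups that did not overlap, which was the case for 0.579% of all tested probes.

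Rbbp7, the close relative of Rbbp4 that takes its place in part of the complexes, had a narrow range. Its range was 2.54 to 2.90 (median 2.63) in the KI-treated group and 2.44 to 2.75 (median 2.52) in the control group, so that all 6 KI-treated animals were above the control median while the groups overlapped. The difference was 0.09 (SE 0.10, 95% interval -0.12 to 0.30), with an adjusted p of 0.632 by limma and an exact two-sided permutation p of 0.218. Without controls 4 and 6 it was 0.14 (SE 0.09). The RBBP7-like locus, which is not a member by name, gave 0.12 (SE 0.10).

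Hdac1, one of the catalytic deacetylases, had the smallest unadjusted p among the 7 tested genes outside Rbbp4. It ranged from 3.89 to 4.27 (median 4.10) in the KI-treated group and from 4.04 to 4.57 (median 4.43) in the control group, and all 6 KI-treated animals were below the control median. The difference was -0.24 (SE 0.12, 95% interval -0.49 to 0.01), with an adjusted p of 0.401 and an unadjusted p of 0.0595 by limma. The exact permutation p, unadjusted and for this probe alone, was 0.0396. Without controls 4 and 6 the difference was -0.18 (SE 0.11), and over all arrays it was -0.13 (SE 0.10) with quantile normalization and -0.12 (SE 0.11) in the deposited log2 values.

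The Hdac1 probe (A_43_P15816, minus strand, chr5:148673850-148673909, rn4) is shown because it shares runs of bases with probes of other genes, so its signal is uncertain as a measure of Hdac1 alone. Capitals mark the 23 bases that are identical in the Hdac1l probe A_44_P1154907, which overlapped it by 33 bases with 2 mismatches. A probe of Dbx1 (A_64_P009937) shared 20 bases with it on the same strand.
Hdac1 probe: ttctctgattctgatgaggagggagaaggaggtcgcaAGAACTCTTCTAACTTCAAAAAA
The files place both probes of Hdac1l at the Hdac1 locus on chromosome 5, whereas RefSeq on assembly GRCr8 has Hdac1l on chromosome 9. The overlapping Hdac1l probe gave -0.22 (SE 0.12), close to Hdac1 itself. The other Hdac1l probe, 1502 bases upstream of the Hdac1 probe by the files' positions, gave 0.20 (SE 0.21), and there controls 4 and 6 were the lowest animals at 0.58 and 0.75 while the others lay at 1.29 or above.

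Hdac2, the partner of Hdac1 in the deacetylase core, was not well above background on any of the 13 arrays with its single probe (A_64_P000751). It has only a bound on each side and no fold change is given.

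The scaffold genes Mta1 and Mta2 showed differences within the spread between animals. On the bright Mta1 probe (A_43_P12253) the KI-treated group ranged from 3.81 to 4.02 (median 3.903) and the control group from 3.61 to 4.44 (median 4.07). Again the highest animals were controls 4 and 6, at 4.44 and 4.25. The difference was -0.13 (SE 0.13, 95% interval -0.41 to 0.15, limma adjusted p = 0.603, exact permutation p = 0.298), and it was -0.01 (SE 0.10) without these controls.

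The other Mta1 probe (A_44_P1107027), 6288 bases upstream in the genome, was dim and well above background on 9 of 13 arrays, 5 KI-treated and 4 control. It lay between -4.37 and -3.41 (median -3.62) in the KI-treated group and between -4.81 and -3.02 (median -3.48) in the control group, with control 4 the lowest animal. The difference was -0.01 (SE 0.26, 95% interval -0.56 to 0.55, limma adjusted p = 0.987, exact permutation p = 0.976), and it was -0.19 (SE 0.22) without controls 4 and 6. The within-animal difference between the Mta1 probes, dim minus bright, was 0.12 higher in the KI-treated group (exact two-sided permutation p = 0.762). This value rests on 4 arrays where the dim probe was not well above background, so it says little about whether the probes agree.

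Mta2 lay between 3.15 and 3.58 (median 3.47) in the KI-treated group and between 3.24 and 3.89 (median 3.49) in the control group. The groups overlapped over most of their range, and control 6 was the highest animal. The difference was -0.13 (SE 0.12, 95% interval -0.39 to 0.14, limma adjusted p = 0.595, exact permutation p = 0.269), and it was -0.04 (SE 0.11) without controls 4 and 6.

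Chd4, the remodelling motor, had the tightest values of the complex apart from controls 4 and 6. Its range was 4.45 to 4.64 (median 4.57) in the KI-treated group and 4.44 to 4.67 in the controls other than 4 and 6. Those 2 were at 5.29 and 5.27, above the other 11 animals by more than the whole range of the latter. The difference was -0.20 (SE 0.15, 95% interval -0.53 to 0.13, limma adjusted p = 0.523, exact permutation p = 0.322) with these animals and 0.01 (SE 0.07, 95% interval -0.15 to 0.17) without them.

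A transcript described as Chd4 but listed under an Ensembl identifier carried another pair of probes. The one 670 bases upstream of the Chd4 probe (A_64_P152587) had control 4 as its lowest animal, at 1.55 against 1.97 to 2.31 in the other 12, and a difference of 0.16 (SE 0.12). The one farther upstream (A_43_P17611) also had control 4 as its lowest animal, at -3.14 against -2.29 or above in the others, and a difference of -0.02 (SE 0.22). Control 4 was thus the highest animal on the probe nearest the 3' end by position and the lowest on both probes upstream of it.

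The methyl-CpG-binding genes went in opposite directions, neither beyond the test. Mbd2, which reads methylated DNA, lay between 3.56 and 3.83 (median 3.77) in the KI-treated group and between 3.52 and 4.71 (median 3.97) in the control group. Once more controls 4 and 6 were the highest animals, at 4.71 and 4.54, and all 6 KI-treated animals were below the control median. The difference was -0.33 (SE 0.18, 95% interval -0.72 to 0.05, limma adjusted p = 0.419, exact permutation p = 0.101), and it was -0.10 (SE 0.11) without controls 4 and 6.

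Mbd3, the subunit that takes the place of Mbd2 in a separate form of the complex, lay between 1.58 and 1.96 (median 1.80) in the KI-treated and between 1.53 and 1.84 (median 1.65) in the control group. Here 5 of 6 KI-treated animals were above the control median, and control 4 was the lowest animal. The difference was 0.11 (SE 0.10, 95% interval -0.11 to 0.33, limma adjusted p = 0.583, exact permutation p = 0.171), and it was 0.07 (SE 0.09) without controls 4 and 6.

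**Figure D3:**
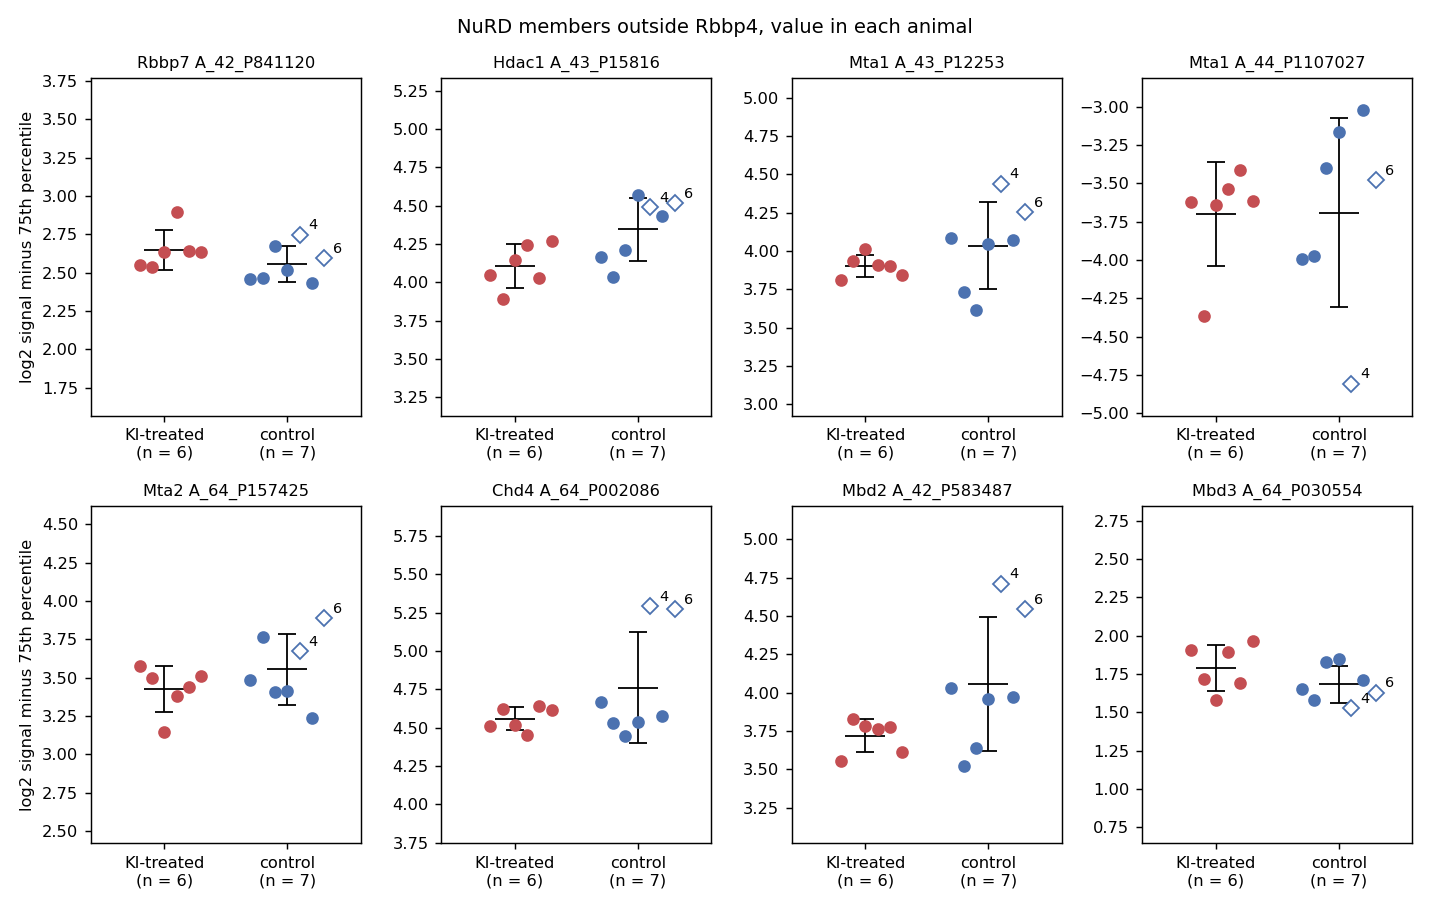
Value of the 8 tested probes of NuRD genes other than Rbbp4 in each animal (y axis, log2 signal minus the 75th percentile of the array, the same span in each panel), with the group mean and SD in black and controls 4 and 6 as open diamonds. Controls 4 and 6 lie above all other animals on the probes of Chd4, Mbd2 and bright Mta1, and the groups overlap on every probe.

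Across the members, controls 4 and 6 held both highest values on Chd4, Mbd2, the bright Mta1 probe and the downstream probe of Rbbp4, and both lowest values on the short-interval probe of Rbbp4. After group means were subtracted, Chd4 and Mbd2 had an r of 0.91 over the 13 arrays and 0.48 without controls 4 and 6, whereas Mta1 (bright probe) and Mbd2 had an r of 0.94 and 0.90. The short-interval probe of Rbbp4 had an r of -0.93 with the bright Mta1 probe over all arrays and -0.89 without controls 4 and 6. Its r with Mbd2 was -0.87 and -0.65. These values are a description of arrays that share their scaling, without a p.

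**Figure D4:**
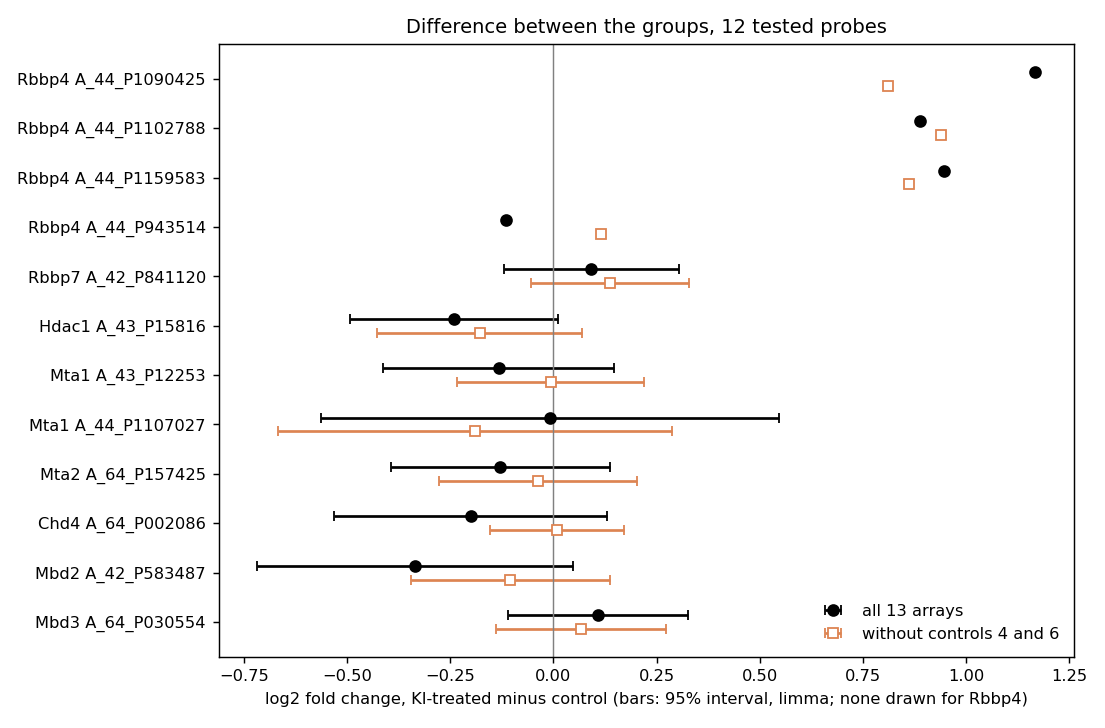
Log2 fold change, KI-treated minus control (x axis), of the 12 tested probes over all 13 arrays (black circles) and without controls 4 and 6 (open orange squares), with 95% intervals from limma except for Rbbp4, whose values are descriptions. Every interval drawn includes 0, and leaving out the 2 controls moved Mbd2 from -0.33 to -0.10 and Chd4 from -0.20 to 0.01.

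Genes of other complexes that hold RBBP4, RBBP7, HDAC1 or HDAC2, or that belong to the same enzyme class, were counted as context: 52 genes, of which 46 were tested with 68 probes. Of these probes 0 passed an adjusted p under 0.05, 8 (11.8%) had an unadjusted p under 0.05 against 12.7% of all tested probes, and their median log2 fold change was -0.04. The 5 with a higher value in the KI-treated group were single probes of Hdac3, Rb1, E2f4, Ezh2 and Eed, and the 3 with a lower value were those of Asf1a, Smarca1 and Sin3a (E2f4 and Ezh2 are named only because their values were seen).

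Sin3a, the scaffold of the SIN3 deacetylase complex, was the 1 related probe of 68 whose groups did not overlap, against 0.579% of all tested probes. Its range was 1.19 to 1.55 in the KI-treated and 1.61 to 2.02 in the control group. The difference was -0.43 (SE 0.10, unadjusted p = 0.00093 and adjusted p = 0.342 by limma, exact permutation p = 0.000583, the smallest that 1716 splits allow), and it was -0.40 (SE 0.09) without controls 4 and 6. The other 15 probes of the SIN3 list had unadjusted p above 0.05.

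Among the other chromatin genes, Rb1, the retinoblastoma protein that RBBP4 was first found to bind, gave 0.61 (SE 0.19, limma adjusted p = 0.353), with controls 4 and 6 the lowest animals at -0.35 and -0.56, and 0.38 (SE 0.13) without them. The class I deacetylase Hdac3 gave 0.77 (SE 0.33, adjusted p = 0.382), where controls 4 and 6 at -1.47 and -1.08 again lay below all others, and 0.28 (SE 0.13) without them. Eed, the PRC2 subunit that binds methylated histone H3, gave 0.43 (SE 0.20, adjusted p = 0.390), with the same animals lowest at -2.92 and -2.88, and 0.20 (SE 0.15) without them.

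In the opposite direction, Asf1a, a histone chaperone, gave -0.89 (SE 0.32, limma adjusted p = 0.358) and Smarca1, an ISWI-type remodelling motor, gave -0.44 (SE 0.17, adjusted p = 0.369), and they gave -0.90 (SE 0.34) and -0.44 (SE 0.19) without controls 4 and 6. Of the other NuRD subunits (Mta3, Chd3, Chd5, Gatad2a, Gatad2b, Cdk2ap1), 5 of 6 genes were tested with 6 probes and 0 had an unadjusted p under 0.05. The smallest belonged to Gatad2b, at 0.35 (SE 0.18) on one probe and -0.25 (SE 0.28) on another. Rcor1, the leading CoREST gene, gave 0.33 (SE 0.18) on the probe with the smallest p, where control 4 was the lowest animal at -0.92, and 0.61 (SE 0.32) and -0.12 (SE 0.10) on its other probes. Without controls 4 and 6 the first of these was 0.10 (SE 0.08) and that of Gatad2b 0.24 (SE 0.18).

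**Figure D5:**
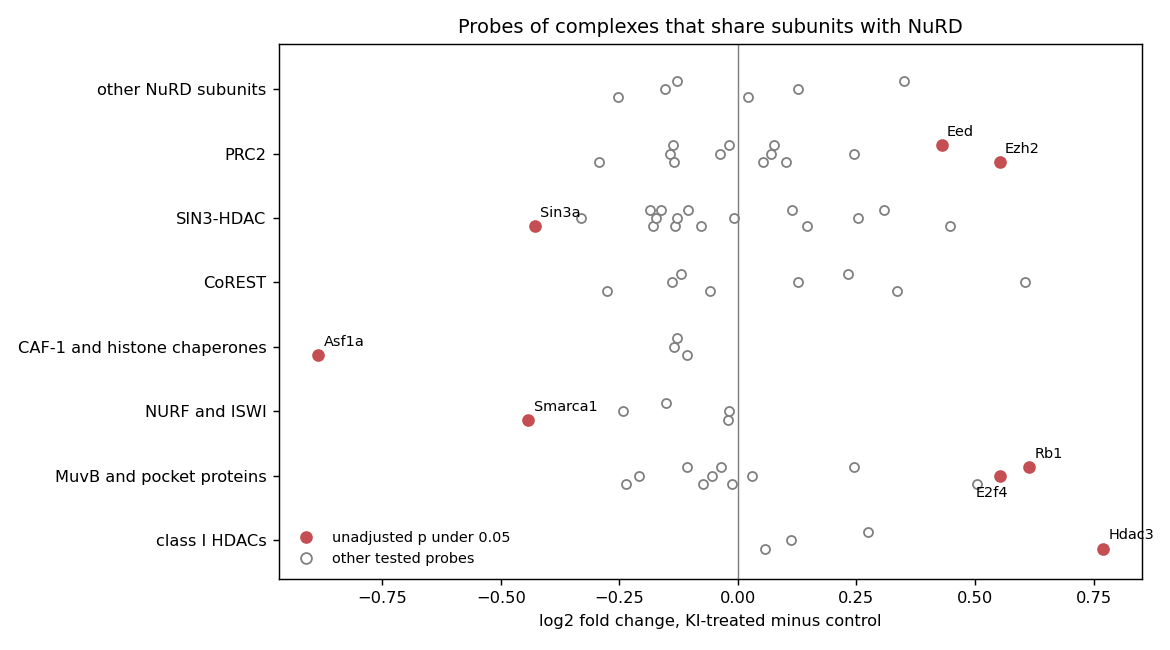
Log2 fold change, KI-treated minus control (x axis), of 68 probes of 46 genes in complexes that share subunits with NuRD (rows), each point 1 probe, with filled points for the 8 probes at an unadjusted p under 0.05. The points spread to both sides of 0 in most rows, and 0 of them passed the adjusted threshold.

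The summed levels of cell type markers, which are carried by the brightest gene of each list, differed most for skeletal muscle. The summed level of 8 of 9 tested skeletal muscle markers (Myh2 was not tested) was 2.20 to 5.998 in the KI-treated and 4.24 to 7.01 in the control group, a difference of -1.03, and the differences of the other 7 lists lay between -0.26 and 0.23. Single markers could differ more than their list's sum. Parathyroid Gcm2 gave 1.09 (SE 0.34) while Pth gave -0.24 (SE 0.13). C cell Chga gave 0.58 (SE 0.25) and the globin gene Hbb 0.57 (SE 0.21). The limma adjusted p of these markers ran from 0.353 to 0.424. Other markers of the same lists did not follow: Calca gave 0.15 (SE 0.34), Calcb -0.18 (SE 0.37) and the brighter globin Hba1 -0.19 (SE 0.19). Positive values were held by 5 of 10 C cell probes and 3 of 4 blood probes. No marker probe of any list passed an adjusted p under 0.05 (0 called), and the median over the 6 lymphocyte probes was 0.46. The proliferation markers, of which 11 of 12 were tested, differed by -0.16. The part of muscle tissue in the values of the NuRD genes was not tested. The lymphocyte marker sum (5 of 10 tested) was 4.69 in KI-treated animal 1 and 1.26 to 2.08 in the other 12, and this animal was the highest of all on the coding-end, stop-codon and short-interval probes of Rbbp4. Without it the differences on those probes were 0.87 (SE 0.28), 0.79 (SE 0.32) and 1.13 (SE 0.32).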

How the data were processed

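The authors deposited 1 scanner file per array, giving spot intensity that Agilent Feature Extraction (version 10.7.3.1) had background-subtracted and detrended, and a table of log2 values whose normalization is not given in the sources used here. No table held columns of other samples (0). From the processed signal, log2 values were taken, control and outlier-flagged spots left out, spots of a probe averaged, and the array's 75th percentile over probes subtracted. The surrogate that the software gives to dim spots makes low values uncertain, so a probe was tested only if 6 or more arrays showed it well above background. Depth is set by array number, 6 and 7. No gene spot was saturated (0).

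The groups were compared with limma (version 3.58.1, R 4.3.3; lmFit and eBayes, Benjamini-Hochberg adjustment over 25717 probes, threshold 0.05), checked on simulated arrays, and single probes outside Rbbp4 with an exact two-sided permutation test over 1716 splits (Python, numpy). Sequences and rn4 positions came from the array files, and current names from RefSeq (GRCr8), which held the symbols of all 9 members.

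The members and lists were chosen with earlier results of these data known. Named were every member probe, the related probe with the smallest unadjusted p per list and any under 0.01, the 3 probes most like each Rbbp4 probe, and the brightest markers. Alternatives were quantile normalization, normexp (offset 50), the deposited log2 values, other filters, slide, scan session or replicate number as a block, array weights, the plain t-test that the study's results name, and leaving out arrays. Taking the 75th percentile over all gene spots or over probes above background on all arrays was chosen after seeing the data. So was leaving out controls 4 and 6 together. Cortex arrays were not analysed here.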

Additional observations from a re-analysis of the deposited data

Results flagged for a closer look

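In 3 cases 1 animal lay far from the others of its group, measured by the gap to its nearest neighbour over the group's range; 54 groups of values were examined, and chance marks about 1 in 20. On Rbbp7, KI-treated animal 4 was the highest at 2.90, with the next at 2.64. On the dim Mta1 probe, KI-treated animal 2 was the lowest at -4.37, with the next at -3.64, and this probe was not well above background on 4 arrays. On the Hdac1l probe that overlaps the Hdac1 probe, KI-treated animal 2 was the lowest at 1.32, with the next at 1.75. Controls 4 and 6 were not marked on any member. The rule cannot mark 2 outlying animals that lie close to each other, as these did on Chd4 at 5.29 and 5.27.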

How the results depend on the processing

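Among the 8 member probes outside Rbbp4 the count at an adjusted p under 0.05 was 0 under all alternatives run, and so was that of the related complexes. Over all probes it was 50 with array weights and 0 to 1 when each array was left out (1 without control 1 and 1 without control 2). The count at an unadjusted p under 0.05 over all probes moved from 3271 to 5120 with scan session as a block, and lay between 2364 and 4598 when each array was left out. Among the 8 probes outside Rbbp4 it was 1 instead of 0 with normexp and quantile normalization (Rbbp7), with the deposited log2 values (Rbbp7), with scan session as a block (Mbd2), with array weights (Hdac1) and by a plain t-test (Hdac1), and 0 to 2 when each array was left out (2 without control 1, Hdac1 and Mbd2). For the related complexes it was 4 to 13 when each array was left out (4 without KI-treated animal 1, 13 without control 1).

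The coding-end, stop-codon and short-interval probes of Rbbp4 stayed positive in all 28 settings, at 0.77 to 1.15, 0.66 to 1.24 and 0.70 to 1.39. The downstream probe was positive in 3 of 28, between -0.20 and 0.12. All settings reuse the same arrays, and the set was chosen by these differences, so the signs are a description. Signs turned for the dim Mta1 probe to 0.0490 (quantile), 0.00464 (normexp with quantile) and 0.0654 (scan session block). Its difference was 0.0706 with the 75th percentile taken over all gene spots. With that percentile over probes above background on all arrays it was 0.0841. When arrays were left out the difference of this probe lay between -0.19 and 0.12. The Hdac1 difference was smallest, -0.12, with the deposited values. Signs turned for Mta2 to 0.00579 with array weights and for Chd4 to 0.00855 without controls 4 and 6. The difference between the Mta1 probes turned to -0.0906 with normexp and the 75th percentile, to -0.0239 with the deposited values and lay between -0.13 and 0.26 when each array was left out, lowest without control 4. The cause was not tested. The share of higher values among probes at an unadjusted p under 0.05 was 44.9%. Across scalings it was 25.4% (normexp with the 75th percentile) to 61.7% (75th percentile over either of the other sets named above).

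The replicate numbers did not pair the animals (correlations of same-numbered deviations from -0.11 to 0.07). With the replicate block, which leaves control 7 without a partner, 0 probes passed the adjusted and 2356 the unadjusted threshold, and the Rbbp4 differences were 0.95, 0.89, 1.21 and -0.13 in the order above with the downstream probe last.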
